A study of Arabidopsis thaliana with 18 samples.

Results

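The loci described here belong to the mitochondrial genome of Arabidopsis thaliana. They are the loci whose identifier starts with ATMG and that had at least 10 raw counts when the 18 leaf libraries were summed. The rule found 41 of the 146 ATMG loci in a table of 33602 loci, and 89 of the others had 0 counts in every library. The members were thus chosen by their summed counts, so that these sums are a description and were not tested. Just inside the limit stood ATMG00520 with 10 counts and ATMG00570 and ATMG00810 with 11 counts each. Just outside it stood ATMG01400 with 9, ATMG01020 with 8 and ATMG00710 with 7 counts.

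The plants were of 3 genotypes and had been grown in 2 light conditions, with 3 libraries in each of the 6 groups. They were wild type (wt, Col-0), the fc2-1 mutant (fc2), and the double mutant fc2-1 pub4-6 (fc2 pub4), in which the pub4 change is always combined with the fc2 change. FC2 is a plastid ferrochelatase, and fc2 plants accumulate singlet oxygen in their chloroplasts when light follows darkness. PUB4 is an E3 ubiquitin ligase, and in the study its pub4-6 allele blocked the cell death that follows in fc2. Groups called 24 h stayed in constant light for 19 days, and groups called cycling had 17 days of constant light and then 2 days of 16 h light and 8 h dark. Total leaf tissue of 19-day-old plants was taken 1 h after subjective dawn, and the leaves of 3 plants were pooled for each library. Ages and days are those of the sample labels, while the methods of the study give slightly younger plants and a shorter time in constant light. Each mutant genotype was represented by a single line, and no pub4 single mutant was sequenced.

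Plant mitochondria keep a small genome for some subunits of the respiratory chain and the ATP synthase, for proteins of cytochrome c maturation, for ribosomal proteins, and for the rRNAs and tRNAs that translate them. All other mitochondrial proteins are made from nuclear genes and imported. The libraries were made by selecting poly(A) RNA. In plant mitochondria most mature transcripts carry no stable poly(A) tail, and added adenosines mark RNA for decay, so that these counts are not a direct measure of total mitochondrial RNA. In whole leaves, fewer mitochondria and less RNA in each of them cannot be told apart either. The table, the sources used here and the reference annotation gave no gene name to most ATMG identifiers, and these loci are therefore named by identifier only.

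The libraries held between 26994499 and 39382316 counts, and 3 counts stood for 0.0762 to 0.111 CPM, the unit of counts scaled to the library total. FC2 was at 130 to 173 CPM in the 6 wt libraries and at 29.9 to 68.9 CPM in the 12 mutant libraries, without overlap. PUB4 was at 20.6 to 28.1 CPM in all libraries, where the pub4-6 allele is an amino acid substitution and need not change the transcript level. The 4 leaf markers summed to between 8646 and 25486 CPM, with the lowest values in the fc2 cycling libraries. The 7 flower markers summed to between 3.19 and 44.9 CPM, with the highest value in fc2 24 h replicate 3. Low counts were even more often than odd throughout the table. Among the values of the 41 loci, 107 were exactly 2, while 28 were 1 and 20 were 3, and 71.9% of the values from 1 to 10 were even, compared with 65.5% for nuclear loci. The cause was not tested, and the fits below made no allowance for this excess of even counts. Their intervals rest on the spread between replicates as well as on counting error.

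To see which mitochondrial loci gave counts at all, the nuclear genome was searched for their sequence. In Col-0 a large piece of mitochondrial DNA is inserted in chromosome 2, so that a read from either genome can match both. Of the stretches of 50 bases in the RefSeq mitochondrial genome (367808 bases, assembly TAIR10.1), 70.5% also occurred on a nuclear chromosome. Of the nuclear positions where such a stretch started, 98.0% lay in a single block at chr2:3239038-3509765. Of 36 annotated mitochondrial protein and rRNA genes, 24 shared over 90% of their stretches with the nucleus, 10 shared under 10%, and 2 lay between. The 10 genes with little shared sequence were cox1 and cox2 (cytochrome c oxidase), nad4L and nad9 (complex I), atp4 (ATP synthase), ccmB (cytochrome c maturation), rps3 (ribosome) and the rRNA genes rrn5, rrn18 and rrn26.

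From chromosome 2, 3 stretches are shown because they are nuclear copies of mitochondrial loci whose counts differed widely. Each is the plus strand of TAIR10.1, 120 bases long and exonic in the annotation, at chr2:3450863-3450982, chr2:3270410-3270529 and chr2:3411659-3411778. Capitals mark bases that lie in no stretch of 50 bases found in the mitochondrial genome.
AT2G07727, whose best match is ATMG00220 (apocytochrome b of complex III): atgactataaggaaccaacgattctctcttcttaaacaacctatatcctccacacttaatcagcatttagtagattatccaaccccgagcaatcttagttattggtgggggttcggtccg
AT2G07675, whose best match is ATMG00980 (ribosomal protein S12/S23 family): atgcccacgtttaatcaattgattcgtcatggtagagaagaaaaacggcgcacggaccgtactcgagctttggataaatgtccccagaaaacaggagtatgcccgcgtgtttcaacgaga
AT2G07715, whose best match is ATMG00560 (OB-fold-like nucleic acid-binding protein): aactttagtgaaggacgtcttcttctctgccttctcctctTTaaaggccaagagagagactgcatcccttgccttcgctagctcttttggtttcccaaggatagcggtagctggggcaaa
The first and the second stretch start at the first coding base and hold 0 capitals. Any 50 bases read from them have an exact match in both genomes of TAIR10.1. The reads were aligned to TAIR10, whose mitochondrial sequence may differ. The third was placed around the first base of AT2G07715 that lies in no shared stretch, so that its 2 capitals follow from this choice. A read of 50 bases that covers them has no exact match in the mitochondrial genome of TAIR10.1. Summed over all libraries, ATMG00220 had 0 counts and its nuclear copy AT2G07727 had 2. ATMG00980 had 156 counts and its copy 52, and ATMG00560 had 33 counts and its copy 82.

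All ATMG loci were then divided by whether a nuclear copy is noted, which is another comparison than that between these examples. The RefSeq notes name a nuclear counterpart on chromosome 2 for 53 ATMG loci. Of these, 39 had 0 counts and 9 had 1 to 9 counts, and 5 (9.43%) reached the limit, and all 53 together had 373 counts. The 5 were ATMG00980, ATMG00560, ATMG01090 (best match annotated as ATP synthase 9, the membrane ring subunit), ATMG01220 (unknown protein) and ATMG01330 (named as the source of a nuclear pseudogene). Of the 93 loci without such a note, 50 had 0 counts and 36 (38.7%) reached the limit, and all 93 together had 38028 counts. ATMG00020 and ATMG01390 alone held 30040 of these counts. The difference was not tested, since the summed counts chose the members. Only notes of a protein match or a pseudogene were read. A locus without a note can still share sequence with the nucleus, so that this split does not measure shared sequence. By identifier, 35 consecutive loci from ATMG00170 to ATMG00500 held 2 counts together, although only 14 of them have a noted copy. How the counting treated reads with several matches is not given in the sources used here, and its part in these zeros was not tested.

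**Figure D1:**
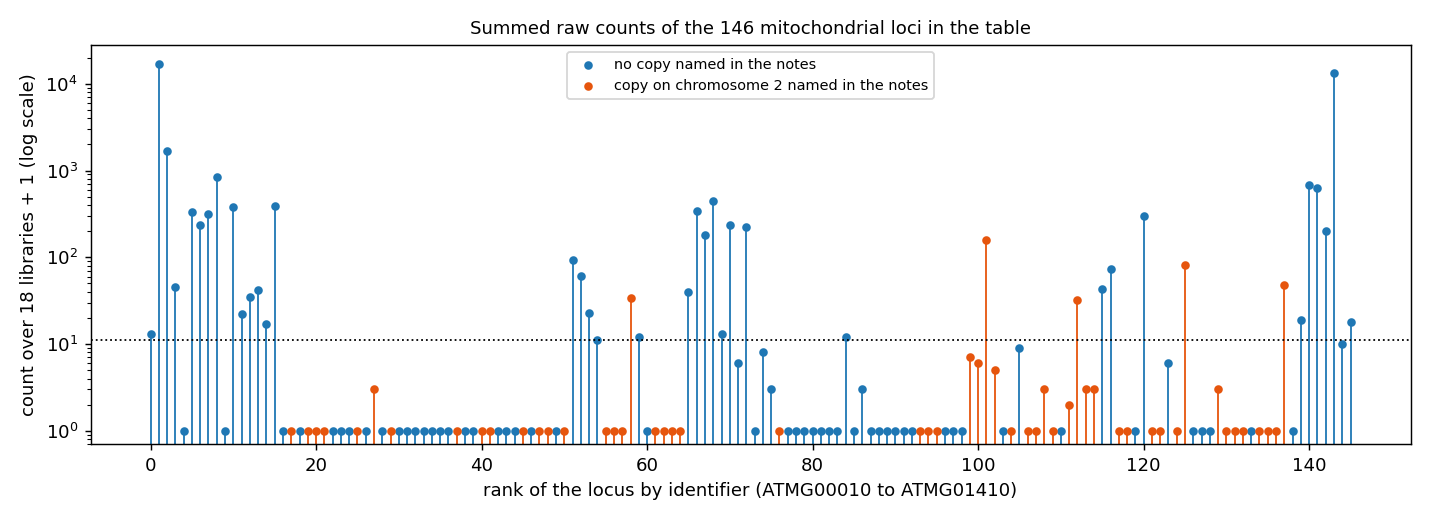
Summed raw counts plus 1 (y axis, log scale) of the 146 mitochondrial loci in the table, placed by the rank of their identifier (x axis). Orange loci have a nuclear counterpart on chromosome 2 named in the RefSeq notes, blue loci have none, and the dotted line marks the limit of 10 counts. Of the orange loci 39 stand at 0 counts, and both loci above 10000 counts are blue.

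Counts were low on the nuclear side of the insertion as well. Reads from these loci can match both genomes, so that low counts need not mean low expression. Of 120 nuclear loci with at least 90% of their stretches in the mitochondrial genome, 118 lay in the block on chromosome 2, 84 had 0 counts and 18 had at least 10. Together they had 1651 counts, compared with 38337 for the 41 mitochondrial loci. Per library they summed to 2.06 to 3.58 CPM. Only 3 of them had enough counts for a test in any of the 11 comparisons, and none of the 3 was called at the adjusted p of 0.01 (edgeR), while at most 1 of them had an unadjusted p under 0.05 in any comparison.

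Counts of the 41 loci were very uneven. ATMG00020 held 16764 counts over the 18 libraries (43.7% of all member counts) and ATMG01390 held 13276 (34.6%), so that these loci together made 78.4% of the total. ATMG00030 followed with 1657 counts, ATMG00090 with 839, ATMG01360 with 681 and ATMG01370 with 626. ATMG00660, ATMG00160, ATMG00110 and ATMG00640 completed the 10 most abundant, with 441, 390, 381 and 336 counts. In all, 3 loci had at least 1000 counts, 16 had fewer than 1000 but at least 100, and 22 had under 100. A count in every library was found for 18 loci, and 23 were at 0 in at least 1 library. The smallest members, such as ATMG00520 and ATMG00570, were at 0 in 13 of the 18 libraries. ATMG01410 was at 0 in 13 libraries too, and 11 of its 17 counts came from fc2 cycling replicate 1. Lengths were not available for these identifiers, so that levels are not compared between loci per length.

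**Figure D2:**
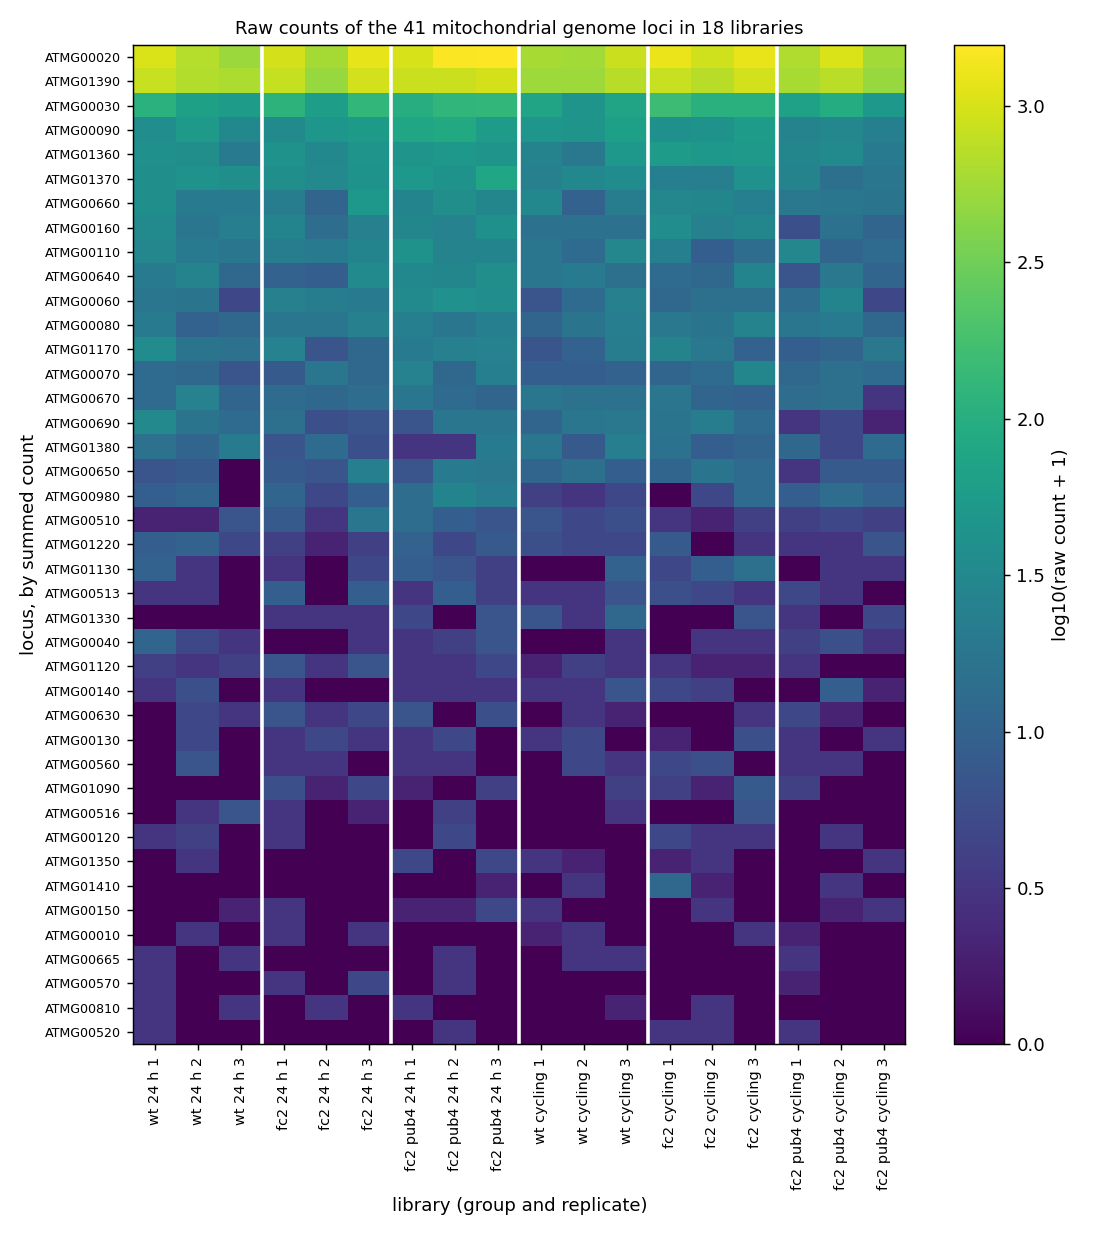
Raw counts of the 41 mitochondrial loci (rows, by summed count) in the 18 libraries (columns, 3 per group, white lines between groups), as log10(count + 1). ATMG00020 and ATMG01390 have at least 501 counts in every library, and 23 loci are at 0 in at least 1 library.

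ATMG00020, the most abundant locus, varied by group and within groups. It was at 33.4, 25.5 and 19.2 CPM in wt 24 h, at 28.4, 19.3 and 34.8 CPM in fc2 24 h, and at 28.5, 45.6 and 41.8 CPM in fc2 pub4 24 h. In cycling light it was at 22.0, 23.7 and 24.0 CPM in wt, at 31.1, 25.3 and 32.2 CPM in fc2, and at 22.6, 38.3 and 20.6 CPM in fc2 pub4. The 24 h groups overlapped each other, and in cycling light all fc2 libraries stood above all wt libraries. The means ran from 23.2 ± 1.08 CPM in wt cycling to 38.6 ± 8.94 CPM in fc2 pub4 24 h (SD, n = 3). Between neighbours in the order of the means, differences were smaller than the larger SD of the pair, except between fc2 cycling (29.5 ± 3.73 CPM) and fc2 pub4 24 h, where the difference was just above it.

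ATMG01390 was steadier. It was at 27.7, 25.3 and 23.7 CPM in wt 24 h, at 24.3, 16.7 and 27.7 CPM in fc2 24 h, and at 24.8, 26.2 and 25.9 CPM in fc2 pub4 24 h. In cycling light it was at 19.5, 22.1 and 19.7 CPM in wt, at 21.0, 19.1 and 24.9 CPM in fc2, and at 20.3, 27.5 and 18.2 CPM in fc2 pub4. All wt 24 h libraries were above all wt cycling libraries, while in fc2 and in fc2 pub4 the light conditions overlapped. The ratio of ATMG00020 to ATMG01390 counts was lowest in wt 24 h replicate 3 (0.812) and highest in fc2 pub4 24 h replicate 2 (1.74). It ranged from 0.812 to 1.21 in wt 24 h and from 1.15 to 1.74 in fc2 pub4 24 h.

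The other 39 loci summed to 8297 counts. Their summed level was 15.3 ± 2.91 CPM in wt 24 h and 14.1 ± 2.99 CPM in fc2 24 h (SD, n = 3), and it was highest in fc2 pub4 24 h with a mean of 18.2 CPM. In cycling light it was 13.6 ± 0.126 CPM in wt, 13.3 ± 1.03 CPM in fc2 and 11.4 ± 2.24 CPM in fc2 pub4. In fc2 pub4 all 24 h libraries (16.9 to 19.5 CPM) were above all cycling libraries (9.35 to 13.8 CPM). In the other genotypes the light conditions overlapped. No test was made of these sums.

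**Figure D3:**
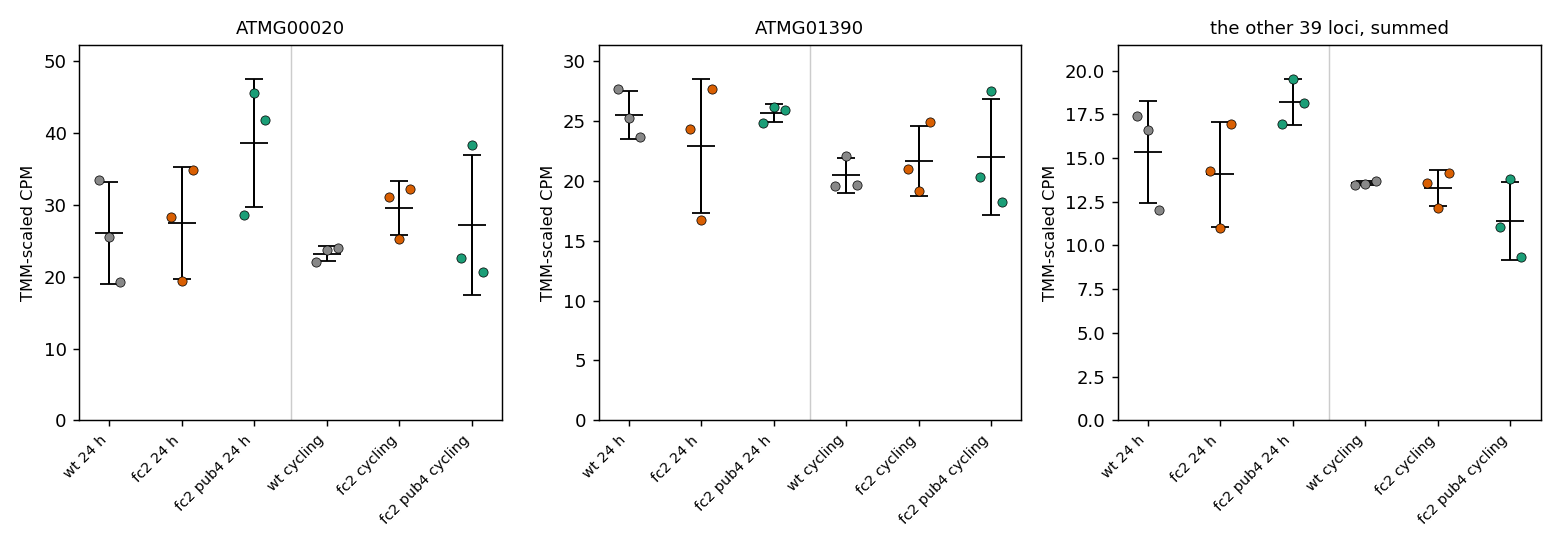
TMM-scaled CPM (y axes, from 0) of ATMG00020, of ATMG01390 and of the other 39 mitochondrial loci summed, in the 6 groups (x axis). Points are libraries, the horizontal mark is the mean and the bars are the SD (n = 3), and for the other 39 loci the fc2 pub4 24 h libraries (16.9 to 19.5 CPM) stand above the fc2 pub4 cycling libraries (9.35 to 13.8 CPM).

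All 41 loci together stood at 67.0 ± 11.8 CPM in wt 24 h, 64.5 ± 16.3 CPM in fc2 24 h and 82.5 ± 10.9 CPM in fc2 pub4 24 h (SD, n = 3). The cycling groups were at 57.2 ± 2.17 CPM (wt), 64.5 ± 7.40 CPM (fc2) and 60.6 ± 16.7 CPM (fc2 pub4). The lowest library was fc2 24 h replicate 2 with 47.0 CPM, and the highest was fc2 pub4 24 h replicate 2 with 91.3 CPM. Summed over all libraries, the 41 loci made 0.00669% of the counts. The ranges of any pair of groups overlapped, except for wt cycling (55.0 to 59.3 CPM) and fc2 pub4 24 h (70.3 to 91.3 CPM).

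The plastid genome, which is also transcribed outside the nucleus, was read beside these loci in the same libraries. Its 133 loci held 137595 counts and summed to 164 to 375 CPM per library. Some libraries were low or high in both organelles. In the fc2 24 h group, replicate 2 was lowest for the mitochondrial loci (47.0 CPM) and the plastid loci (223 CPM), and replicate 3 was highest for both (79.4 and 375 CPM). In fc2 pub4 cycling, replicate 2 was highest for both (79.6 and 275 CPM). Mitochondrial counts as a percentage of plastid counts were 30.8% to 35.4% in wt 24 h, 21.1% to 23.4% in fc2 24 h and 27.9% to 30.6% in fc2 pub4 24 h. These ranges did not overlap, although wt and fc2 pub4 were close. In cycling light they were 23.1% to 25.6% in wt, 28.3% to 40.01% in fc2 and 25.4% to 28.9% in fc2 pub4, where fc2 pub4 overlapped both other genotypes and fc2 stood above wt. The order of wt and fc2 was thus opposite in the light conditions, as a description without a test. The plastid loci, by which the percentage divides, stood at 203 ± 22.3 CPM in wt 24 h and 295 ± 76.7 CPM in fc2 24 h (SD, n = 3). In cycling light they stood at 234 ± 8.59 CPM in wt and 194 ± 49.8 CPM in fc2. The mitochondrial loci were at 67.0 and 64.5 CPM in wt and fc2 in 24 h, and at 57.2 and 64.5 CPM in cycling light. The percentage is therefore not a measure of mitochondrial RNA alone, and how far changes of plastid RNA set it was not tested.

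**Figure D4:**
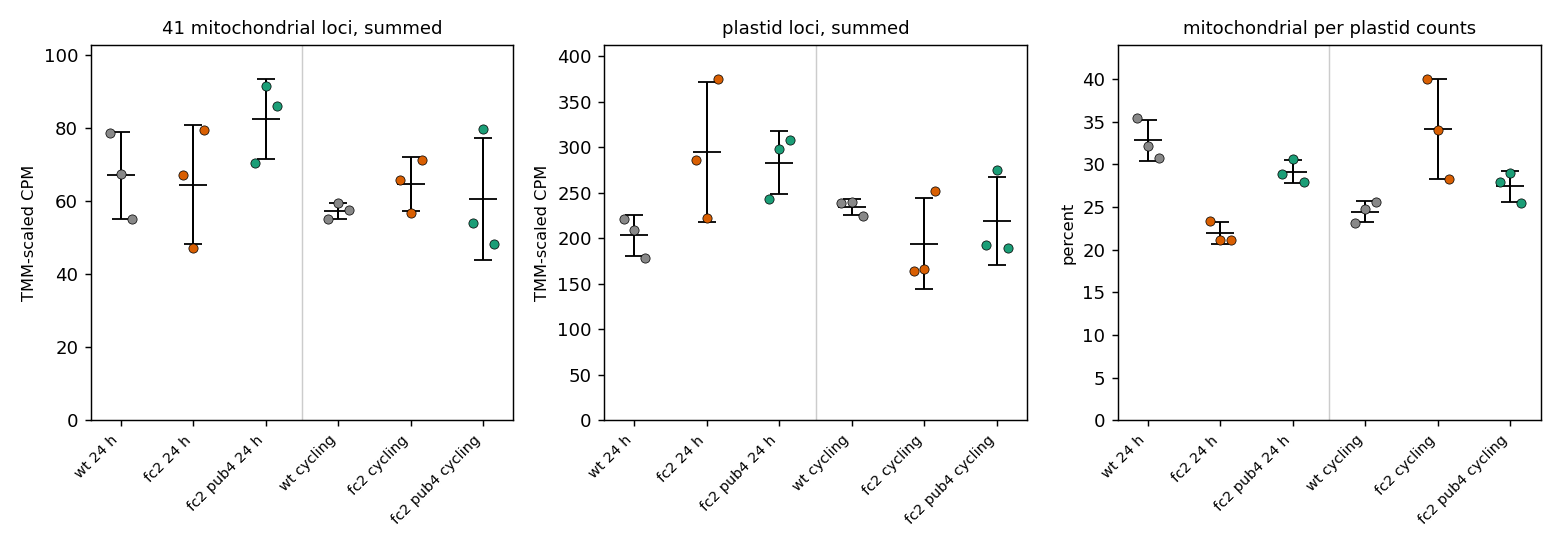
Summed TMM-scaled CPM of the 41 mitochondrial loci (left) and of the 133 plastid loci (middle), and mitochondrial counts as a percentage of plastid counts (right), in the 6 groups. Points are libraries and bars show the mean and SD (n = 3). In 24 h light the percentages of wt (30.8% to 35.4%), fc2 pub4 (27.9% to 30.6%) and fc2 (21.1% to 23.4%) do not overlap. In that light the plastid loci average 203 CPM in wt and 295 CPM in fc2.

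Changes of single loci were tested with edgeR in fits over all loci with enough counts, and a locus was called at an adjusted p under 0.01. Because of their low counts, 22 of the 41 loci, with at most 92 counts each, passed the filter in none of the 11 comparisons. The other 19 passed in at least 1, and 14 passed in all of them. A locus that passes mainly through the group in which it is high would be favoured by this filter. The counts of calls below therefore refer to the loci tested and not to all members. The shares of all genes given beside them are not matched for counts.

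To determine the effect of the light shift alone, wt cycling was compared with wt 24 h. ATMG01390 fell, from 25.5 ± 2.01 to 20.5 ± 1.44 CPM (log2FC −0.32, SE 0.08, adjusted p = 0.00785), and it was the only call among the 16 loci tested. Over all genes tested 35.3% were called. The log2FC of 13 of the 16 loci was below 0, with a median of −0.21 (all genes −0.0037), and 1 locus had an unadjusted p under 0.05, compared with 55.3% of all genes. ATMG00020 had a log2FC of −0.17 with a 95% interval from −0.52 to 0.18. The call of ATMG01390 was lost without wt 24 h replicate 1 or 2 and without wt cycling replicate 1 or 3 (adjusted p = 0.0211 to 0.0352). It was also lost when all 18 libraries shared the spread (adjusted p = 0.09997), and when libraries were scaled to the members other than the 2 most abundant (log2FC −0.17, adjusted p = 0.611), an alternative chosen after seeing the data.

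In fc2, where the light shift leads to photo-oxidative stress, 0 of 17 loci were called between cycling and 24 h, while 44.1% of all genes were. At an unadjusted p under 0.05 the loci numbered 1 (62.2% of all genes), and DESeq2 called 0. This locus was ATMG00060, at 0.706, 0.691 and 0.581 CPM in fc2 24 h and 0.273, 0.380 and 0.372 CPM in fc2 cycling. These groups did not overlap, but the log2FC of −0.96 (SE 0.34) had an adjusted p of 0.0369. The intervals of the log2FC were narrow for the most abundant loci, from −0.34 to 0.50 for ATMG00020 and from −0.49 to 0.29 for ATMG01390. Larger changes of either locus in fc2 lie outside these 95% intervals.

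The light shift in fc2 pub4 gave the most calls. ATMG00090 was at 2.18, 2.61 and 1.46 CPM in 24 h and at 0.892, 1.07 and 0.837 CPM in cycling light, without overlap. It fell with a log2FC of −1.14 (SE 0.28, adjusted p = 0.00594). ATMG01370 was at 1.38, 1.25 and 2.02 CPM in 24 h and at 0.892, 0.519 and 0.618 CPM in cycling light. It fell by a similar amount (log2FC −1.18, SE 0.32, adjusted p = 0.00973). These were the 2 calls among 17 loci, at a background of 40.1% of all genes, and both were lower in cycling light. In total 16 of the 17 loci had a log2FC below 0 with a median of −0.51 (all genes −0.0012), and 5 had an unadjusted p under 0.05 (59.0% of all genes). The other 3 were ATMG00160 (−1.24, SE 0.42, adjusted p = 0.0290), ATMG00640 (−1.11, SE 0.41, adjusted p = 0.0418) and ATMG00020 (−0.50, SE 0.22, adjusted p = 0.0828).

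Leaving out single libraries changed these calls. Both were lost without fc2 pub4 24 h replicate 1, fc2 pub4 cycling replicate 1 or fc2 pub4 cycling replicate 3, where 0 loci were called. Without fc2 pub4 24 h replicate 2 only ATMG01370 was called, and without fc2 pub4 24 h replicate 3 only ATMG00090. Without fc2 pub4 cycling replicate 2, in which the organelle loci were high, 3 loci were called, which were ATMG00020 (−0.83), ATMG01390 (−0.41) and ATMG00090. With the same scaling to the members other than ATMG00020 and ATMG01390, both calls were lost (ATMG00090 −0.47, ATMG01370 −0.49) and 11 of the 17 loci stood above 0. Of the leaf markers, 3 of 4 rose in the same comparison, from 14024 to 16333 CPM summed in 24 h to 21257 to 22098 CPM in cycling light, and their part in the result was not tested.

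The genotypes were next compared in constant light, the permissive condition for fc2. Between fc2 and wt, 0 of 17 loci were called (0.315% of all genes), 2 had an unadjusted p under 0.05 (15.2% of all genes), and DESeq2 called 0. ATMG00690 was at 1.00, 0.593 and 0.449 CPM in wt and at 0.412, 0.164 and 0.174 CPM in fc2. These values did not overlap, but the log2FC of −1.44 (SE 0.50) missed the threshold (adjusted p = 0.186). ATMG01380 had a log2FC of −1.17 (SE 0.50, adjusted p = 0.300). Raw counts in wt and fc2 were 31, 16 and 12 and 14, 5 and 6 for ATMG00690. For ATMG01380 they were 15, 10 and 20 and 6, 12 and 5. Both loci thus passed the filter mainly through the wt libraries, in which they were high, and their falls are favoured by it.

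In constant light, 0 of 18 loci were called between fc2 pub4 and wt (0.763% of all genes). At an unadjusted p under 0.05 there were 2 (20.8% of all genes), and DESeq2 called 0. They were ATMG00020, with a log2FC of 0.55 (SE 0.20, adjusted p = 0.153), and ATMG00060, with 1.22 (SE 0.43, adjusted p = 0.144). ATMG00060 was at 0.904, 1.21 and 0.957 CPM in fc2 pub4 and at 0.550, 0.593 and 0.150 CPM in wt. ATMG01390 did not follow ATMG00020, since its log2FC was −0.0046 with an interval from −0.17 to 0.16.

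When fc2 pub4 was set against fc2 in constant light, the values leaned to the double mutant. All 18 loci tested had a log2FC above 0, with a median of 0.46 (all genes 0.0034), yet 0 were called (1.49% of all genes). This count depended on the filter, since with no filter 29 of 41 loci were above 0. The filter removed ATMG01380, which had 6, 12 and 5 counts in fc2 and 2, 2 and 20 in fc2 pub4, and kept ATMG00980, which had 10, 4 and 8 counts in fc2 and 13, 27 and 21 in fc2 pub4. ATMG00980 passed only through the fc2 pub4 libraries, in which it was high, so that its rise is favoured by the filter. There were 2 loci with an unadjusted p under 0.05 (22.3% of all genes), and DESeq2 called 0. ATMG00980, whose best nuclear match is a ribosomal protein S12/S23 family gene, was at 0.367, 0.820 and 0.558 CPM in fc2 pub4 and at 0.294, 0.132 and 0.232 CPM in fc2 (log2FC 1.37, SE 0.47, adjusted p = 0.113). ATMG00020 had a log2FC of 0.49 (SE 0.21, adjusted p = 0.195). The lean was smaller without fc2 24 h replicate 2, the lowest of these 6 libraries for both organelles, where 13 of 19 loci were above 0 with a median of 0.29. Without fc2 pub4 24 h replicate 3 the median was 0.27, with 18 of 19 loci above 0. It was nearly gone when libraries were scaled to the members other than the 2 most abundant (11 of 18 above 0, median 0.085). Flower markers were lower in fc2 pub4 (7.11 to 8.99 CPM summed) than in fc2 (19.1 to 44.9 CPM), with 1 of the 7 genes called. The 2 root markers summed to 63.9 to 103 CPM in fc2 pub4 and 24.4 to 29.4 CPM in fc2, and the single gene of them that was tested, AT3G09260, rose by 1.61 on the log2 scale (SE 0.15, adjusted p = 0.000661, edgeR). Of the leaf markers 0 of 4 were called and 3 had an unadjusted p under 0.05. The part of these markers in the result was not tested.

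In cycling light the nuclear transcriptomes differed widely, and few mitochondrial loci were called. Most of these loci had low counts, with a median SE of the log2FC of 0.40 for fc2 vs wt, so that moderate changes could be missed. Between fc2 and wt, 42.8% of all genes were called and 0 of 18 loci were, although DESeq2 called 1. This locus was ATMG00020, which was higher in fc2 by a log2FC of 0.36 (SE 0.10) with an adjusted p of 0.0119 in edgeR and 0.00409 in DESeq2. Over its alternatives the adjusted p ran from 0.000799 to 0.228. At an unadjusted p under 0.05 there were 2 loci (60.5% of all genes), of which the other was ATMG00030. ATMG00030 was at 3.85, 2.91 and 2.84 CPM in fc2 and at 2.66, 1.83 and 2.01 CPM in wt (log2FC 0.57, SE 0.22, adjusted p = 0.0471). The 18 loci had 8 values above and 10 below 0. When libraries were scaled by their totals alone, the median of all genes moved to 0.23 and both ATMG00020 and ATMG00030 were called.

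For the double mutant against wt in cycling light, 0 of 16 loci were called, compared with 14.3% of all genes. A single locus had an unadjusted p under 0.05 (36.6% of all genes), and DESeq2 called 0. This was ATMG00090, at 0.892, 1.07 and 0.837 CPM in fc2 pub4 and at 1.74, 1.83 and 1.73 CPM in wt, where the groups did not overlap (log2FC −0.91, SE 0.26, adjusted p = 0.0221).

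When the double mutant was set against fc2 in cycling light, ATMG00690 was the only call among 18 loci, at a background of 36.4% of all genes. Its raw counts were 16, 21 and 12 in fc2 and 2, 4 and 1 in fc2 pub4, which made 0.429 ± 0.129 and 0.0844 ± 0.0575 CPM (SD, n = 3). It fell with a log2FC of −2.31 (SE 0.59, 95% interval −3.64 to −0.98, adjusted p = 0.00933). In wt cycling the locus had 10, 17 and 18 counts, and in fc2 pub4 24 h it had 6, 17 and 17. In fc2 24 h it had 14, 5 and 6 counts, so that low values were also found outside fc2 pub4 cycling. ATMG00690 passed the filter in this comparison only through the fc2 libraries, in which it was high, and was removed between fc2 pub4 and wt. The call was lost without filtering, with DESeq2 (adjusted p = 0.0170) and without any library other than fc2 cycling replicate 3 (adjusted p = 0.0113 to 0.0414). At an unadjusted p under 0.05 there were 2 loci (56.4% of all genes), the other being ATMG00160 (−1.08, SE 0.43, adjusted p = 0.0612).

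**Figure D5:**
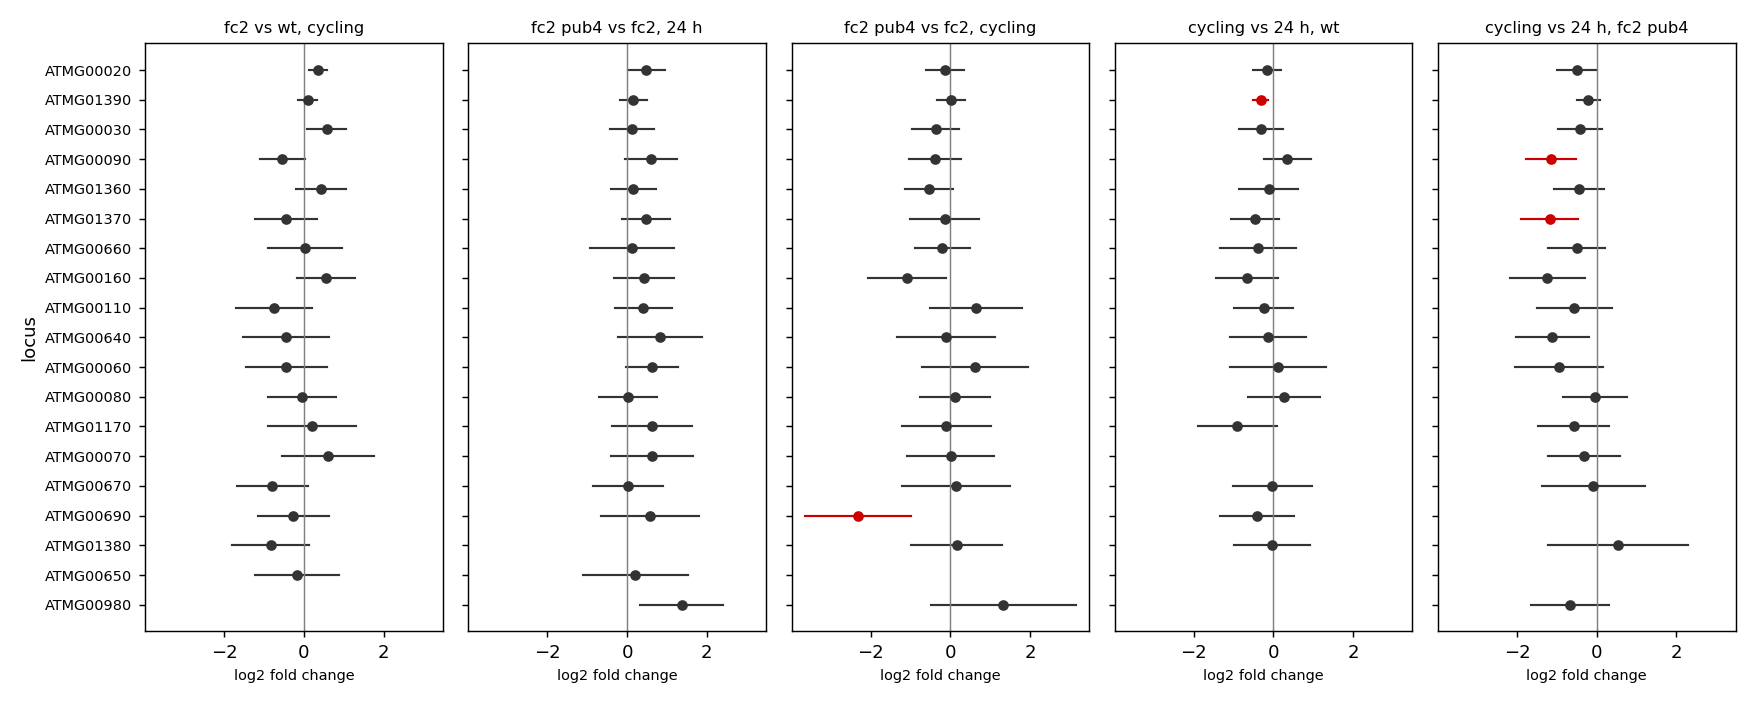
Log2 fold change (x axes, points) with its 95% interval (lines) of the mitochondrial loci tested in 5 comparisons, ordered by summed count; red marks an adjusted p under 0.01 and a missing point a locus removed by the filter. All 18 points of fc2 pub4 vs fc2 at 24 h lie above 0, and 4 loci in the panels are red, which are ATMG00690, ATMG01390, ATMG00090 and ATMG01370.

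Finally, the difference between mutant and wt was tested for its dependence on light. For fc2, 0 of 18 loci were called (31.3% of all genes), 0 had an unadjusted p under 0.05 (50.3% of all genes) and DESeq2 called 0. For fc2 pub4, 0 of 19 loci were called (0.248% of all genes), 2 had an unadjusted p under 0.05 (16.3% of all genes) and DESeq2 called 0. The stronger was ATMG00090, with an interaction of −1.47 on the log2 scale (SE 0.39, adjusted p = 0.0656), where fc2 pub4 fell in cycling light while wt was at 1.39 ± 0.432 CPM in 24 h and 1.77 ± 0.0523 CPM in cycling light. The other was ATMG00650 (−2.36, SE 1.04, adjusted p = 0.273). Standard errors of the tested loci reached 1.04, so that changes of many of the rarer loci were not detectable at this depth. No comparison with nuclear genes of matched counts was made.

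Nuclear genes for mitochondrial proteins were read beside these loci, without a test between them. A list of 26 nuclear genes of the respiratory chain and ATP synthase passed the filter in full in every comparison. In constant light 0 of them were called in any comparison of genotypes (edgeR). At an unadjusted p under 0.05 they numbered 0 for fc2 vs wt (15.2% of all genes), 4 for fc2 pub4 vs wt (20.8%) and 2 for fc2 pub4 vs fc2 (22.3%). In fc2 vs wt under cycling light 10 rose and 1 fell, with a median log2FC of 0.19 (all genes −0.0017). These 11 of 26 are a share close to the 42.8% of all genes called. In the same comparison 4 of 4 leaf markers fell and the root marker AT3G09260 rose by 1.32 on the log2 scale, and their part was not tested. AT5G66760 (SDH1-1, flavoprotein subunit of succinate dehydrogenase) rose by 1.45 (SE 0.16, adjusted p = 6.26e-05). AT3G27380 (SDH2-1) and AT5G40650 (SDH2-2), iron-sulfur subunits of the same complex, rose by 1.18 and 0.75. AT1G22840 (CYTC-1), a cytochrome c gene, rose by 0.78 on the log2 scale. In the same light 13 of the 26 fell in fc2 pub4 relative to fc2, and 0 rose, where 36.4% of all genes were called in either direction and 4 of 4 leaf markers rose. AT4G10040 (CYTC-2), the other cytochrome c gene, rose in cycling light in all genotypes, by 1.61 in wt and 1.86 in fc2 pub4, and by 1.50 in fc2. The list also held AT5G08670, AT5G08680 and AT5G08690, near-identical ATP synthase beta subunit genes whose counts are uncertain.

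A second list held 9 nuclear genes for the synthesis, splicing and decay of mitochondrial RNA. In fc2 vs wt under cycling light 3 rose and 0 fell, a share below the 42.8% of all genes called. They were AT5G15700 (RPOTmp, an RNA polymerase of mitochondria and plastids, log2FC 0.71, SE 0.14), AT5G14580 (mitochondrial PNPase, which degrades polyadenylated RNA, 0.93, SE 0.16) and AT1G74350 (nMAT4, a maturase for intron splicing, 0.82, SE 0.17). For fc2 pub4 relative to fc2 in that light, 1 rose and 4 fell (36.4% of all genes called), and the fall was largest for RPOTmp (−0.98). In fc2 pub4 3 of the 9 were lower after the light shift (40.1% of all genes called), which were RPOTmp (−1.27, SE 0.11), mitochondrial PNPase (−1.19, SE 0.15) and AT5G46920 (nMAT2, another maturase, −0.81, SE 0.12). In wt RPOTmp (−0.67) and mitochondrial PNPase (−0.68) were the 2 calls, both lower (35.3% of all genes called). In fc2 the 2 calls were AT5G02250 (−0.60) and AT5G46920 (−0.49), both lower (44.1% of all genes called). AT1G68990 (RPOTm), the other phage-type polymerase of mitochondria, and AT4G14790 (SUV3), an RNA helicase, were called in no comparison (edgeR).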

How the data were processed

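Leaf RNA of 18 samples in 6 groups was sequenced from TruSeq Stranded mRNA libraries as single-end reads. The authors aligned them to TAIR10 with HISAT2 2.1.0 through RMTA (CyVerse), and the counts they deposited are raw, per locus and per replicate. Per the submitters' processing notes StringTie 1.3.4 and DESeq2 were also used. The treatment of strand, overlaps and multiple matches is not given in the sources used here.

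The tools were edgeR 4.0.16 and DESeq2 1.42.0 (R 4.3.3) and Python 3.11.15. Each comparison took the libraries of its groups, with filterByExpr, TMM, edgeR's quasi-likelihood test and Benjamini-Hochberg adjustment over all loci tested, two-sided. The fitting steps were tested on simulated data with large changes in well-counted genes only, so that this check does not cover the rarer loci. Library totals are given with the results, and replicates differed by more than sampling noise. CPM are on the TMM scale over 18 libraries. Loci named by rule are the 10 called loci with the largest change in each comparison (all if fewer) and the 10 most abundant. Loci with an unadjusted p under 0.05, at the count limit or with a noted nuclear copy were named after their values were seen. Members and lists were chosen with earlier results of these data known. Planned classes by function, levels per length and rRNA-based alternatives were not run, since identifiers could not be tied to genes. Stretches of 50 bases were compared within RefSeq TAIR10.1, whose mitochondrial sequence may differ from that of TAIR10. Alternatives were other scalings, filters and tools, a shared fit, a replicate block and leaving out each library.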

Additional observations from a re-analysis of the deposited data

How the results depend on the processing

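Counts of loci called were recomputed under 166 alternatives, of which 138 gave the same count within 1.5 times, and no alternative called more than 3 loci. No called change of a named locus reversed. For fc2 vs wt in cycling light the count of 0 became 2 with library size alone and 1 with no filter on low counts, with at least 10 counts in every library and with DESeq2. For fc2 pub4 vs wt in cycling light it became 1 with edgeR on all 18 libraries. For fc2 pub4 vs fc2 in cycling light the count of 1 became 0 with no filter, with at least 10 counts in every library (which removes ATMG00690), with DESeq2 and with the replicate block. For cycling vs 24 h the count in wt became 0 with edgeR on all 18 libraries and with the replicate block, and the count of 2 in fc2 pub4 became 1 with the replicate block. Scaling to the members other than the 2 most abundant, which is not among the 166, gave 0 calls for fc2 pub4 vs fc2 in cycling light and for the light shift in wt and fc2 pub4, and 1 call (ATMG00020) for fc2 vs wt in cycling light. Same-numbered replicates deviated together with correlations from −0.149 to 0.196, not all above 0.1 in any comparison. The main fits did not pair them, and a shared batch was not tested. Leaving out each library gave from 0 to 3 calls for the light shift in fc2 pub4, from 0 to 1 for that in wt, and from 0 to 1 for fc2 vs wt, fc2 pub4 vs wt and fc2 pub4 vs fc2 in cycling light.

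As a share of total counts the summed level of wt cycling was 51.8 in place of 57.2 CPM, and 12.3 in place of 13.6 without ATMG00020 and ATMG01390. Leaving out each library moved the summed level least in wt cycling (56.2 to 58.3 CPM) and most in fc2 pub4 cycling (51.1 to 66.8 CPM). Library size alone moved the median log2FC of all genes by over 0.1 in the light shift of wt (to −0.14) and of fc2 pub4 (to −0.14), in fc2 pub4 vs fc2 in cycling light (to −0.12), in fc2 vs wt in cycling light (to 0.23), in the light shift of fc2 (to 0.079) and in the fc2 interaction (to 0.19). The scaling to members other than the 2 most abundant and the leaving out of libraries from sums and medians were chosen after seeing the data. A sum without rRNA loci and a sum without repeated loci were not run. Depth limits the rarer loci, of which 22 could not be tested.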
